A study of Mus musculus with 9 samples.

Results

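The transcripts of the DNA replication machinery were followed in mouse embryonic stem cells differentiated to neural stem cells of the ventral hindbrain. A list of 46 gene symbols was searched by exact name, and 44 of them had a row among the 38197 symbols of the deposited tables. Cdt1 and Gins2 had no row and were not analysed here. The members were sorted by role into licensing (14 genes), polymerases (8 genes), clamp and clamp loaders (7 genes) and other replication genes on the list (15 genes).

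By the labels, wild-type E14.1 cells of strain 129 were grown as a monolayer with retinoic acid and the Smoothened agonist SAG from 0 to 3 days in differentiation conditions (DDC). The paper's methods place the change to medium without these supplements somewhat later than the labels do. Cells carrying prominin-1 were taken by magnetic sorting at 4.5DDC, 5.5DDC and 6.5DDC. Polyadenylated RNA was sequenced as single-end reads from 3 libraries per time point, 9 in all. Counted reads ran from 11244486 to 17820601 per library at 4.5DDC (median 14390488), from 11066568 to 25506193 at 5.5DDC (median 11573523) and from 12851786 to 16479972 at 6.5DDC (median 15913821). All 3 comparisons share libraries, so their results are not independent of each other. The p-values measure only the spread between these libraries, since the labels do not say whether replicates come from separate cultures.

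Replicate 1 stood apart at every time point. On the second principal component of all 14742 tested genes, which held 27.2% of the variance, the replicate 1 libraries lay at 23.5 (4.5DDC), 55.5 (5.5DDC) and 52 (6.5DDC), and the other 6 libraries lay between -48.3 and -0.814. The first component, with 39.5% of the variance, ran from -56.9 in replicate 1 of 4.5DDC to 65.8 in replicate 2 of 6.5DDC. Call counts and medians of all members are therefore given with all libraries and with replicates 2 and 3 alone.

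Before S phase the origin recognition complex (ORC) binds DNA, and Cdc6 and Cdt1 load the MCM2-7 helicase onto it, a step that geminin blocks. Kinases and firing factors then turn the loaded helicase into an active fork, where polymerase alpha-primase starts the strands and polymerases delta and epsilon extend them with the PCNA clamp set by its loaders. Many of these genes are transcribed under E2F control and rise in cells that enter S phase.

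From 4.5DDC to 6.5DDC, 36 of the 44 members were called lower and 0 higher, beside 9.53% of all tested genes called lower and 9.21% called higher. Median log2 fold change was -1.36 among members and 0.00 among all 14742 tested genes. Members ran from -2.54 (Chtf18) to 0.18 (Orc3), and 42 of the 44 lay below 0. Unadjusted p was below 0.05 for 40 members, all lower, and for 5218 of all tested genes in either direction. In FPKM, 39 of the 44 members had every 6.5DDC library below every 4.5DDC library, against 16.7% of tested genes. With replicates 2 and 3 alone, 40 members were called lower and the member median was -1.69, with 2171 of all genes called lower and 2415 higher. Summed over the 44 members, FPKM stood at 2366, 2843 and 2739 at 4.5DDC, 1431, 1792 and 1804 at 5.5DDC and 1414, 1050 and 876.1 at 6.5DDC. All 4.5DDC libraries lay above all others, and 6.5DDC replicate 1 lay just below 5.5DDC replicate 1. Members held 0.539, 0.631 and 0.616% of counted reads at 4.5DDC, 0.332, 0.399 and 0.398% at 5.5DDC and 0.315, 0.231 and 0.199% at 6.5DDC. Fewer cells in cycle and less of these RNAs per cell cannot be told apart in libraries of pooled cells. The members are well-expressed genes, with a median of 35.8 FPKM against 11.6 for tested genes, a range from 5.88 (Gins3) to 124 (Mcm7), and no library at 0.

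**Figure D1:**
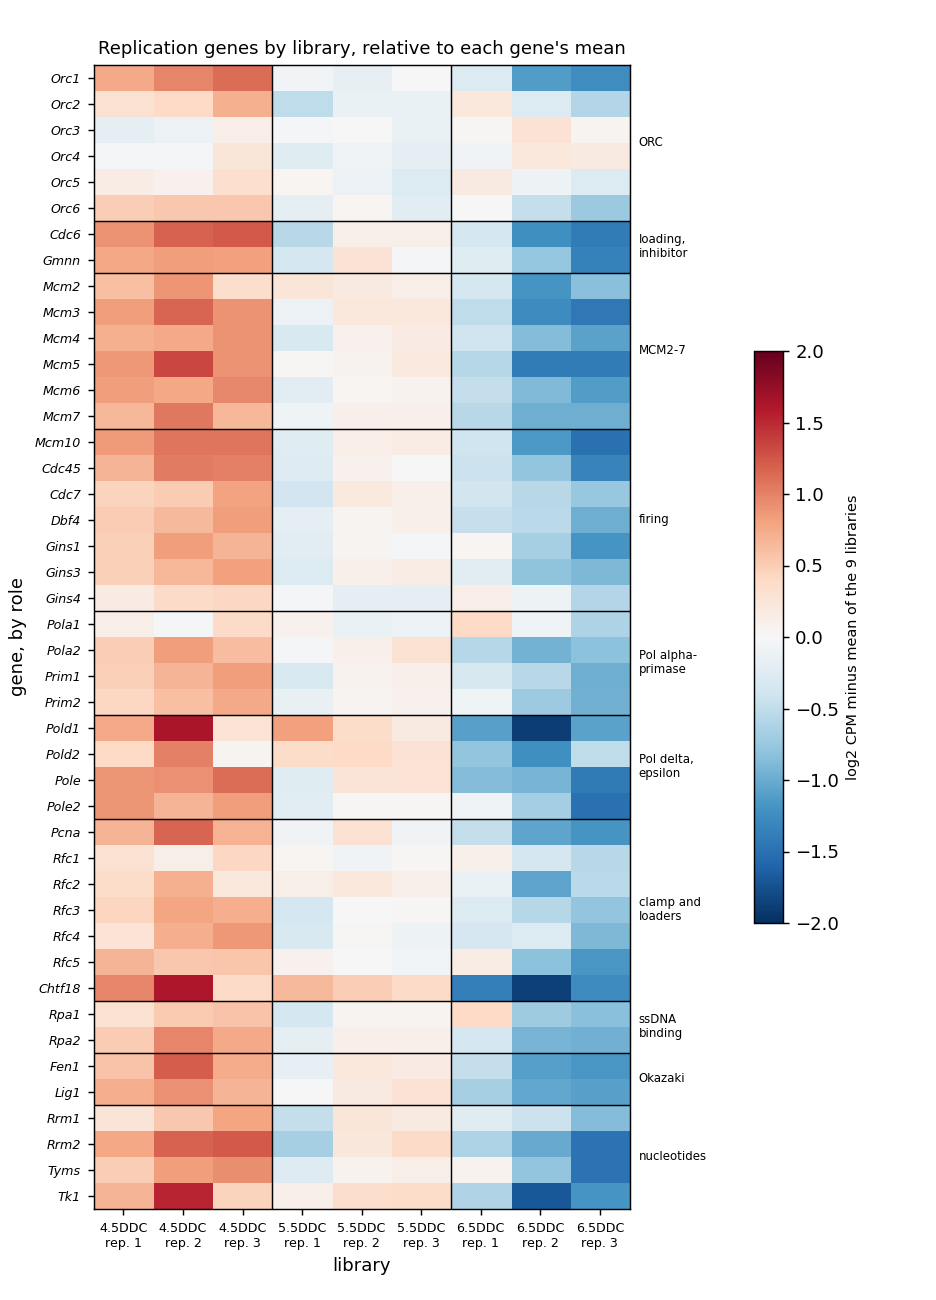
Rows are the 44 members grouped by role, columns the 9 libraries, and colour the log2 CPM of each library minus the mean of the row. Most rows pass from red at 4.5DDC to blue at 6.5DDC, while Orc3 (log2 fold change 0.18) and Orc4 (0.04) stay pale.

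From 4.5DDC to 5.5DDC, edgeR's quasi-likelihood test called 0 of the 44 members, beside 0.0136% of tested genes called lower. Without adjustment 31 members had p below 0.05, all with lower values, as did 2275 of all tested genes in either direction, and the smallest Benjamini-Hochberg adjusted p of a member in edgeR's quasi-likelihood test was 0.136. DESeq2 called 17 members (176 of all genes lower and 278 higher), limma voom 0 and the tests on log2 FPKM 0. Median log2 fold change was -0.72 for members and 0.01 for tested genes, with a range from -1.22 (Cdc6) to -0.04 (Orc3). In 36 of the 44 members all 5.5DDC libraries lay below all 4.5DDC libraries in FPKM, against 11.7% of tested genes. Replicates 2 and 3 alone gave 13 called members and a member median of -0.735, with 131 of all genes called lower and 354 higher.

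From 5.5DDC to 6.5DDC, 2 of the 44 members, Chtf18 and Lig1, were called lower, beside 0.197% of tested genes. Unadjusted p was below 0.05 for 27 members and 2733 of all tested genes. Median log2 fold change was -0.65 for members and 0.02 for tested genes, with a range from -1.96 (Chtf18) to 0.30 (Orc4). Libraries of 6.5DDC lay wholly below those of 5.5DDC in 20 of the 44 members, against 13.9% of tested genes. Of the other tests, limma voom called 1 member, and 0 were called on both log2 FPKM scales, with only the 2 time points, and in 6 of the 9 fits with a library left out. DESeq2 called 16 members, with 379 of all genes called lower and 236 higher. Replicates 2 and 3 alone gave 29 called members and a member median of -1.05, with 368 of all genes called lower and 360 higher.

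Across any of the 3 time points 31 of the 44 members were called, beside 9.63% of tested genes. Replicates 2 and 3 alone gave 39, and leaving out 1 library gave as few as 14 (without 6.5DDC replicate 2) or 20 (without 4.5DDC replicate 2). For this test the share of all tested genes is given in the main fit only. All genes called from 4.5DDC to 6.5DDC also moved in these 3 settings, from 2763 to 4586, 1125 and 1152. The test of whether the 2 intervals differed in edgeR called 0 members and 0 tested genes (0%). Unadjusted p was below 0.05 in 3 members, Orc4 (0.048), Pold2 (0.047) and Chtf18 (0.020), and in 701 tested genes, and DESeq2 and the fit of replicates 2 and 3 alone also called 0 members.

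Within replicate numbers, a description without a test, the member median from 4.5DDC to 5.5DDC was -0.743, -0.687 and -0.758 in replicates 1, 2 and 3. In the later interval it was 0.0742, -0.865 and -1.13, with 20, 39 and 42 of the 44 members lower. Replicate 1 thus stood apart in the later interval, and 20 members were lower there in all 3 replicates. In the first interval 41 members were lower in all 3 replicates, and over the whole span 37 were.

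The ORC, which marks origins, was the role with the smallest share of calls. Of its 6 genes 2 were called lower from 4.5DDC to 6.5DDC, with a median of -0.45 and a range from -1.76 to 0.18. Within replicates 1, 2 and 3 the ORC median was 0.0274, -0.396 and -1.06, a description without a test. Orc4 had 63.7, 61.6 and 76.8 FPKM at 4.5DDC, 48.8, 56.7 and 68.3 at 5.5DDC and 56.5, 61.8 and 61.2 at 6.5DDC. All 3 time points overlapped, with the highest value in 4.5DDC replicate 3 and the lowest in 5.5DDC replicate 1. Orc4 gave a log2 fold change of 0.04 (standard error 0.14) between 4.5DDC and 6.5DDC and was not called (edgeR's quasi-likelihood test, Benjamini-Hochberg adjusted p = 0.867). That sign turned on the log2 FPKM scales (-0.162 and -0.164), with an offset for transcript GC (-0.146) and in some fits with a library left out. Orc3 gave 0.18 and was not called (edgeR's quasi-likelihood test, Benjamini-Hochberg adjusted p = 0.388). Nor was Orc5 at -0.24 (edgeR's quasi-likelihood test, Benjamini-Hochberg adjusted p = 0.346). Orc2 at -0.65 also missed the threshold (edgeR's quasi-likelihood test, Benjamini-Hochberg adjusted p = 0.0823). Orc2 lay lower in every 6.5DDC library than in every 4.5DDC library (36, 39.6 and 48.4 against 34, 25.4 and 19.6 FPKM), and replicate 1 at 34 was nearest. Orc6 held 48.2, 49.6 and 49.8 FPKM at 4.5DDC, 30.2, 35.3 and 30 at 5.5DDC and 35.8, 25.1 and 20.4 at 6.5DDC. The 4.5DDC libraries lay above all others, and 5.5DDC and 6.5DDC overlapped. Orc6 fell by 0.89 (standard error 0.20) on the log2 scale (edgeR's quasi-likelihood test, Benjamini-Hochberg adjusted p = 0.0177).

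Orc1, the largest ORC subunit, gave different pictures in counts and FPKM. Its FPKM was 6.74, 8.26 and 12.6 at 4.5DDC, 4.01, 14.9 and 18.9 at 5.5DDC and 4.42, 1.87 and 1.65 at 6.5DDC. FPKM at 6.5DDC lay below 4.5DDC without overlap, while 5.5DDC held both a low library (replicate 1) and the highest (replicate 3). In counts scaled to library size (CPM) the same libraries had 21.4, 25 and 27.7, then 12.3, 11.3 and 12.7, then 10.5, 5.89 and 5.4. CPM at 4.5DDC lay above all others, and 5.5DDC lay above 6.5DDC. Orc1 was the only member of 44 with a library whose FPKM departed from its counts by over 1 on the log2 scale, up to 2.18 in 5.5DDC replicate 3, against at most 0.76 in the other members. Over the whole span Orc1 counts fell by 1.76 (standard error 0.29) on the log2 scale (edgeR's quasi-likelihood test, Benjamini-Hochberg adjusted p = 0.00467). On the log2 FPKM scales, chosen as alternatives, the fold change was -1.52 and -1.85 and the call was lost.

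Cdc6 loads the helicase and Gmnn, geminin, inhibits loading. Cdc6 had 21.3, 23.3 and 24.2 FPKM at 4.5DDC, 6.54, 10.9 and 12.5 at 5.5DDC and 7.97, 5.06 and 3.93 at 6.5DDC. Every 4.5DDC library lay above all others, and 5.5DDC and 6.5DDC overlapped through replicate 1. Cdc6 fell by 2.01 (standard error 0.32) on the log2 scale across both intervals (edgeR's quasi-likelihood test, Benjamini-Hochberg adjusted p = 0.00404). Gmnn had 70.6, 74.2 and 68.5 FPKM at 4.5DDC, 32.7, 48.6 and 39.7 at 5.5DDC and 37.3, 23.1 and 15.5 at 6.5DDC. The later time points again overlapped through replicate 1 and both lay below 4.5DDC. Gmnn fell by 1.52 (standard error 0.28) on the log2 scale (edgeR's quasi-likelihood test, Benjamini-Hochberg adjusted p = 0.00771).

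All 6 genes of the MCM2-7 helicase were called lower from 4.5DDC to 6.5DDC, with a median of -1.64 and a range from -2.10 (Mcm5) to -1.37 (Mcm2). Mcm7, the most abundant member, had 177, 197 and 199 FPKM at 4.5DDC, 88.6, 114 and 120 at 5.5DDC and 93.8, 73.7 and 55.8 at 6.5DDC. In FPKM all 4.5DDC libraries lay above the rest, and 6.5DDC replicate 1 lay inside the range of 5.5DDC. In CPM, 5.5DDC (139, 159 and 158) lay above 6.5DDC (100, 75.1 and 75) without overlap. Mcm7 fell by 1.62 (standard error 0.18) on the log2 scale (edgeR's quasi-likelihood test, Benjamini-Hochberg adjusted p = 0.0011). Mcm5 had 57.3, 80.3 and 58.6 FPKM at 4.5DDC, 32.2, 33.4 and 36.3 at 5.5DDC and 21.7, 12 and 12 at 6.5DDC. No time points overlapped, and 6.5DDC replicate 1 was the highest of its group. The log2 fold change of Mcm5 was -2.10, with a standard error of 0.25 (edgeR's quasi-likelihood test, Benjamini-Hochberg adjusted p = 0.00151). Mcm3 came next at -1.97 (edgeR's quasi-likelihood test, Benjamini-Hochberg adjusted p = 0.00185). Mcm6 gave -1.66 (edgeR's quasi-likelihood test, Benjamini-Hochberg adjusted p = 0.00151). Mcm4 gave -1.53 (edgeR's quasi-likelihood test, Benjamini-Hochberg adjusted p = 0.00255). Mcm2 had the smallest change of the helicase genes, -1.37 (edgeR's quasi-likelihood test, Benjamini-Hochberg adjusted p = 0.00443). The 6 MCM genes together summed to 551.9, 628.2 and 586.1 at 4.5DDC, 297.8, 353.8 and 366 at 5.5DDC and 257.6, 178.2 and 156 at 6.5DDC in FPKM. The 6 ORC genes summed to 216.6, 222.3 and 265.6 at 4.5DDC, 170.4, 200.6 and 204.2 at 5.5DDC and 201.2, 192.4 and 167.5 at 6.5DDC. ORC sums at 5.5DDC and 6.5DDC overlapped, whereas MCM sums of the 3 time points did not.

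**Figure D2:**
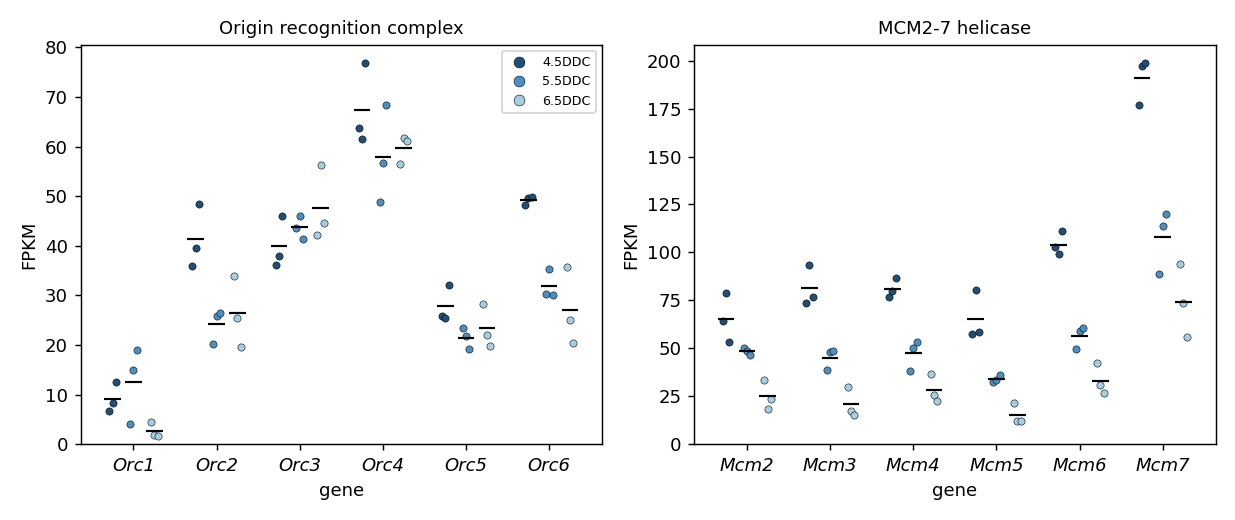
FPKM of the ORC and MCM2-7 genes in each of the 9 libraries by time point, with 1 point per library and bars at the means. Mcm7 runs from 199 to 55.8 FPKM, while Orc4 stays between 48.8 and 76.8.

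Promoters of the members were searched for E2F-type words on both strands, from 250 bases before to 50 bases after the RefSeq start (GRCm38.p6), using the 8-letter words TTTCCCGC, TTTCGCGC, TTTGCCGC and TTTGGCGC. A promoter entry was found for 37 of the 44 members, and Gmnn, Mcm4, Gins1, Gins4, Prim2, Pole and Rfc2 had none. At least 1 match lay in 13 of the 37 (35.1%), against 469 of 9997 tested genes (4.69%) and 744 of 32851 promoter windows (2.26%). Matches lay in 11 of the 30 members called lower (36.7%) and in 2 of the 7 not called (28.6%), Orc3 and Pola1. A CCAAT box (CCAAT) lay in 23 of 37 (62.2%) against 43.5% of tested genes and 37.4% of promoter windows. A CHR element (TTTGAA or TTCGAA) lay in 9 of 37 (24.3%) against 15.8% of tested genes and 19.2% of windows. Among all genes with a promoter entry the shares were 41.1% for the CCAAT box and 21.7% for the CHR element. A match is a description of sequence and does not show binding. The 4 sequences printed here, with the E2F-type words in capitals, are those whose matches lie before the RefSeq start and outside annotated exons of any gene in GENCODE, for Mcm6 (chr1:128359758-128359865, minus strand), Mcm5 (chr8:75109306-75109413, plus strand), Cdc6 (chr11:98907982-98908070, plus strand) and Pola1 (chrX:93632236-93632343, minus strand). Another match of Mcm6, 47 bases before the start, lies outside the printed bases. Mcm6, Mcm5 and Cdc6 were called lower and Pola1 was not.
Mcm6: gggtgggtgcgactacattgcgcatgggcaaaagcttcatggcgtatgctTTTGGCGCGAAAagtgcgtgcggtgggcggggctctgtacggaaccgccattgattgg
Mcm5: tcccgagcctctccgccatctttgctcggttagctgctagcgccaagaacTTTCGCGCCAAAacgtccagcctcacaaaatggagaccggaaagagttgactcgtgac
Cdc6: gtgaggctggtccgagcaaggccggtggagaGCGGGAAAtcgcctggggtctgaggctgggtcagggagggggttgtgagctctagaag
Pola1: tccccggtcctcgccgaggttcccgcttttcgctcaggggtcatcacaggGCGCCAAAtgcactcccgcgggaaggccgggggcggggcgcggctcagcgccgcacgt

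Origin firing genes were called lower in 6 of 7 cases from 4.5DDC to 6.5DDC, with a median of -1.26. Dbf4, the regulatory subunit of the Cdc7 kinase, had 52.3, 55.1 and 64.9 FPKM at 4.5DDC, 31.6, 38.7 and 39.3 at 5.5DDC and 26.1, 24.7 and 17.7 at 6.5DDC. None of its time points overlapped. Dbf4 fell by 1.31 (standard error 0.19) on the log2 scale (edgeR's quasi-likelihood test, Benjamini-Hochberg adjusted p = 0.00273). Mcm10, which helps activate the helicase, had 31.6, 51.8 and 38.1 FPKM at 4.5DDC, 15.2, 17.7 and 17.3 at 5.5DDC and 13.2, 7.16 and 6.71 at 6.5DDC. Its time points did not overlap, and 4.5DDC replicate 2 was the highest library. Mcm10 fell by 1.93 (standard error 0.28) on the log2 scale (edgeR's quasi-likelihood test, Benjamini-Hochberg adjusted p = 0.00279). Cdc45, part of the active helicase, fell by 1.71 on the log2 scale (edgeR's quasi-likelihood test, Benjamini-Hochberg adjusted p = 0.0031). Cdc7, the kinase itself, fell by 1.15 on the log2 scale (edgeR's quasi-likelihood test, Benjamini-Hochberg adjusted p = 0.00668). Among the GINS genes, whose products complete the active helicase, Gins1 fell by 1.17 on the log2 scale (edgeR's quasi-likelihood test, Benjamini-Hochberg adjusted p = 0.0254). Gins3 fell by 1.26 (edgeR's quasi-likelihood test, Benjamini-Hochberg adjusted p = 0.00938). Gins4 at -0.48 was not called (edgeR's quasi-likelihood test, Benjamini-Hochberg adjusted p = 0.137).

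Polymerase genes were called lower in 7 of 8 cases. In polymerase alpha-primase, which lays the primers, 3 of 4 genes were called, with a median of -1.19. Prim1, the primase subunit, had 41.4, 47.9 and 51.8 FPKM at 4.5DDC, 24.2, 31.8 and 31.3 at 5.5DDC and 24.3, 20.4 and 15.2 at 6.5DDC. The 4.5DDC libraries lay above all others, and 5.5DDC and 6.5DDC touched through replicate 1. Prim1 fell by 1.26 (standard error 0.22) on the log2 scale (edgeR's quasi-likelihood test, Benjamini-Hochberg adjusted p = 0.00552). Pola2 had 21.1, 27.5 and 23.2 FPKM at 4.5DDC, 15, 16.4 and 19.2 at 5.5DDC and 10.5, 7.79 and 8.68 at 6.5DDC. No time points overlapped. Pola2 fell by 1.42 (standard error 0.17) on the log2 scale (edgeR's quasi-likelihood test, Benjamini-Hochberg adjusted p = 0.00151). Prim2, the large primase subunit, fell by 1.13 on that scale (edgeR's quasi-likelihood test, Benjamini-Hochberg adjusted p = 0.0145). Pola1, the catalytic subunit, had 21.3, 19.3 and 27.1 FPKM at 4.5DDC, 20.5, 17.5 and 21.3 at 5.5DDC and 27.6, 20 and 12.5 at 6.5DDC. All groups overlapped, with both the highest and the lowest library at 6.5DDC. The log2 fold change of -0.20 (standard error 0.25) was not called (edgeR's quasi-likelihood test, Benjamini-Hochberg adjusted p = 0.613).

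Polymerases delta and epsilon, which extend the strands, had 4 of 4 genes called, with a median of -1.72. Pold1, the catalytic subunit of delta, had 18.9, 25 and 15.1 FPKM at 4.5DDC, 17.3, 15.6 and 15.3 at 5.5DDC and 6.94, 3.91 and 6.94 at 6.5DDC. Libraries of 6.5DDC lay below all others, and 4.5DDC and 5.5DDC overlapped. Pold1 fell by 2.29 (standard error 0.36) on the log2 scale (edgeR's quasi-likelihood test, Benjamini-Hochberg adjusted p = 0.00412). Pold2, its accessory subunit, had 49.6, 71.7 and 42.3 FPKM at 4.5DDC, 46.5, 49.4 and 48.9 at 5.5DDC and 33.2, 20.7 and 30.5 at 6.5DDC. Again only 6.5DDC lay apart from the rest. Pold2 fell by 1.35 (standard error 0.24) on the log2 scale (edgeR's quasi-likelihood test, Benjamini-Hochberg adjusted p = 0.00647). Pole, the catalytic subunit of epsilon, had 15.9, 16.6 and 20.3 FPKM at 4.5DDC, 7.79, 12 and 11.8 at 5.5DDC and 6.33, 5.62 and 4.33 at 6.5DDC. Its time points did not overlap. Pole fell by 2.01 (standard error 0.22) on the log2 scale (edgeR's quasi-likelihood test, Benjamini-Hochberg adjusted p = 0.00107). Pole2, its second subunit, fell by 1.43 on the log2 scale (edgeR's quasi-likelihood test, Benjamini-Hochberg adjusted p = 0.0157).

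Clamp and clamp loader genes were called lower in 6 of 7 cases, with a median of -1.12. Pcna, the sliding clamp, had 131, 174 and 198 FPKM at 4.5DDC, 68.5, 104 and 91.7 at 5.5DDC and 82.6, 58.7 and 42.8 at 6.5DDC. In FPKM the 4.5DDC libraries lay above all others, and 6.5DDC replicate 1 lay inside the 5.5DDC range. In CPM, 5.5DDC (45.5, 59.2 and 45.6) lay above 6.5DDC (34.6, 23.1 and 21.2) without overlap. Pcna fell by 1.72 (standard error 0.24) on the log2 scale (edgeR's quasi-likelihood test, Benjamini-Hochberg adjusted p = 0.00238). Chtf18, of the alternative clamp loader, had 16, 21.6 and 10.1 FPKM at 4.5DDC, 7.47, 10.1 and 7.65 at 5.5DDC and 2.27, 1.13 and 4.26 at 6.5DDC. Libraries of 6.5DDC lay below all others, while 4.5DDC and 5.5DDC met at 10.1. Chtf18 fell by 2.54 (standard error 0.31) on the log2 scale across both intervals (edgeR's quasi-likelihood test, Benjamini-Hochberg adjusted p = 0.00151). In the later interval alone Chtf18 fell by 1.96 (standard error 0.31) (edgeR's quasi-likelihood test, Benjamini-Hochberg adjusted p = 0.0459). This later call was lost with limma voom, on the log2 FPKM scales, with only the 2 time points, and in 6 of the 9 fits with a library left out. Its lowest count, 54, was the lowest of any member. Among the subunits of the main clamp loader, Rfc3 fell by 1.18 on the log2 scale (edgeR's quasi-likelihood test, Benjamini-Hochberg adjusted p = 0.00479). Rfc4 fell by 1.12 (edgeR's quasi-likelihood test, Benjamini-Hochberg adjusted p = 0.0103). Rfc5 fell by 1.07 (edgeR's quasi-likelihood test, Benjamini-Hochberg adjusted p = 0.0357). Rfc2 fell by 0.96 (edgeR's quasi-likelihood test, Benjamini-Hochberg adjusted p = 0.0195). Rfc1, its large subunit, at -0.53 was not called (edgeR's quasi-likelihood test, Benjamini-Hochberg adjusted p = 0.0847).

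Rpa1 and Rpa2 cover single-stranded DNA. Rpa1 had 60, 74.1 and 66.4 FPKM at 4.5DDC, 39.7, 50.7 and 50.2 at 5.5DDC and 59.5, 26.9 and 27.5 at 6.5DDC. At 59.5, 6.5DDC replicate 1 lay just below the lowest 4.5DDC library in FPKM, and 5.5DDC and 6.5DDC overlapped. In CPM this order was reversed, with 214 in 6.5DDC replicate 1 and 202 in 4.5DDC replicate 1. The Rpa1 log2 fold change of -0.73 (standard error 0.32) was not called (edgeR's quasi-likelihood test, Benjamini-Hochberg adjusted p = 0.132), and it was called with replicates 2 and 3 alone. Without 6.5DDC replicate 1 Rpa1 lay at -1.28 and was called, and without 6.5DDC replicate 3 it lay at -0.482. Rpa2 had 36.6, 50.9 and 43.8 FPKM at 4.5DDC, 22.2, 28.4 and 28 at 5.5DDC and 20.2, 13.5 and 13.1 at 6.5DDC. No time points overlapped. Rpa2 fell by 1.47 (standard error 0.22) on the log2 scale (edgeR's quasi-likelihood test, Benjamini-Hochberg adjusted p = 0.00311).

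Lig1 and Fen1 finish Okazaki fragments by joining and trimming them. Lig1 had 150, 161 and 159 FPKM at 4.5DDC, 82.5, 104 and 132 at 5.5DDC and 63.5, 45.7 and 43.5 at 6.5DDC. No time points overlapped. Lig1 fell by 1.68 (standard error 0.17) on the log2 scale across both intervals (edgeR's quasi-likelihood test, Benjamini-Hochberg adjusted p = 0.000844). In the later interval Lig1 fell by 1.03 (standard error 0.16) (edgeR's quasi-likelihood test, Benjamini-Hochberg adjusted p = 0.0459). The second of these calls was lost on the log2 FPKM scales, with a GC offset, with only the 2 time points, and in 8 of the 9 fits with a library left out. Fen1 had 33.9, 53 and 37.9 FPKM at 4.5DDC, 20.2, 26.6 and 25.8 at 5.5DDC and 16.6, 10.6 and 10.2 at 6.5DDC. Its time points did not overlap. Fen1 fell by 1.74 (standard error 0.25) on the log2 scale (edgeR's quasi-likelihood test, Benjamini-Hochberg adjusted p = 0.00259), but 84.2% of its exonic bases overlap exons on the opposite strand.

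All 4 genes of nucleotide supply were called lower, with a median of -1.68. Rrm2, the small subunit of ribonucleotide reductase, had 152, 201 and 206 FPKM at 4.5DDC, 56.6, 112 and 121 at 5.5DDC and 58.2, 44.8 and 33.6 at 6.5DDC. The 4.5DDC libraries lay above the rest, and the later time points overlapped through replicate 1. Rrm2 fell by 2.06 (standard error 0.31) on the log2 scale (edgeR's quasi-likelihood test, Benjamini-Hochberg adjusted p = 0.00355). Tk1, thymidine kinase, fell by 2.03 on the log2 scale (edgeR's quasi-likelihood test, Benjamini-Hochberg adjusted p = 0.00524). Tyms, thymidylate synthase, fell by 1.34 (edgeR's quasi-likelihood test, Benjamini-Hochberg adjusted p = 0.0286). Rrm1, the large reductase subunit, fell by 1.03 (edgeR's quasi-likelihood test, Benjamini-Hochberg adjusted p = 0.0225).

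Compared with each other, the licensing subset had 10 of 14 genes called from 4.5DDC to 6.5DDC, the polymerase subset 7 of 8, the clamp and clamp loader subset 6 of 7 and the remaining members 13 of 15. Their medians were -1.52, -1.39, -1.12 and -1.34. In the first interval the medians were -0.81, -0.59, -0.60 and -0.70, and in the later interval -0.70, -0.70, -0.47 and -0.60. Within licensing the ORC genes had a median of -0.45 and the MCM2-7 genes of -1.64, with overlapping ranges since Orc1 at -1.76 lay below 4 of the 6 MCM2-7 genes. The difference between these roles was not tested. Of the 4 licensing genes not called, all were ORC genes. Summed licensing FPKM was 860.4, 947.9 and 944.4 at 4.5DDC, 507.5, 613.8 and 622.3 at 5.5DDC and 504.1, 398.8 and 342.9 at 6.5DDC. Polymerase sums were 206.3, 247.3 and 222.8 at 4.5DDC, 153.6, 168.9 and 174.2 at 5.5DDC and 133.4, 93.71 and 89.52 at 6.5DDC. Clamp and clamp loader sums were 497.8, 613 and 593.1 at 4.5DDC, 324.4, 391.1 and 366.3 at 5.5DDC and 322.9, 247.9 and 188.9 at 6.5DDC. Time points did not overlap in any of these 3 subsets. The remaining members summed to 801.1, 1035 and 978.6 at 4.5DDC, 445.3, 617.9 and 640.8 at 5.5DDC and 453.1, 309.6 and 254.7 at 6.5DDC, and there 5.5DDC and 6.5DDC overlapped through replicate 1. In the later interval the polymerase median was -1.13 for delta and epsilon and -0.51 for alpha-primase, and with a GC offset chosen after seeing the data these were -0.90 and -0.61, a difference that was not tested. In replicate 1 alone the 5.5DDC to 6.5DDC median was -0.342 for MCM2-7, -0.784 for delta and epsilon and 0.255 for ORC.

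**Figure D3:**
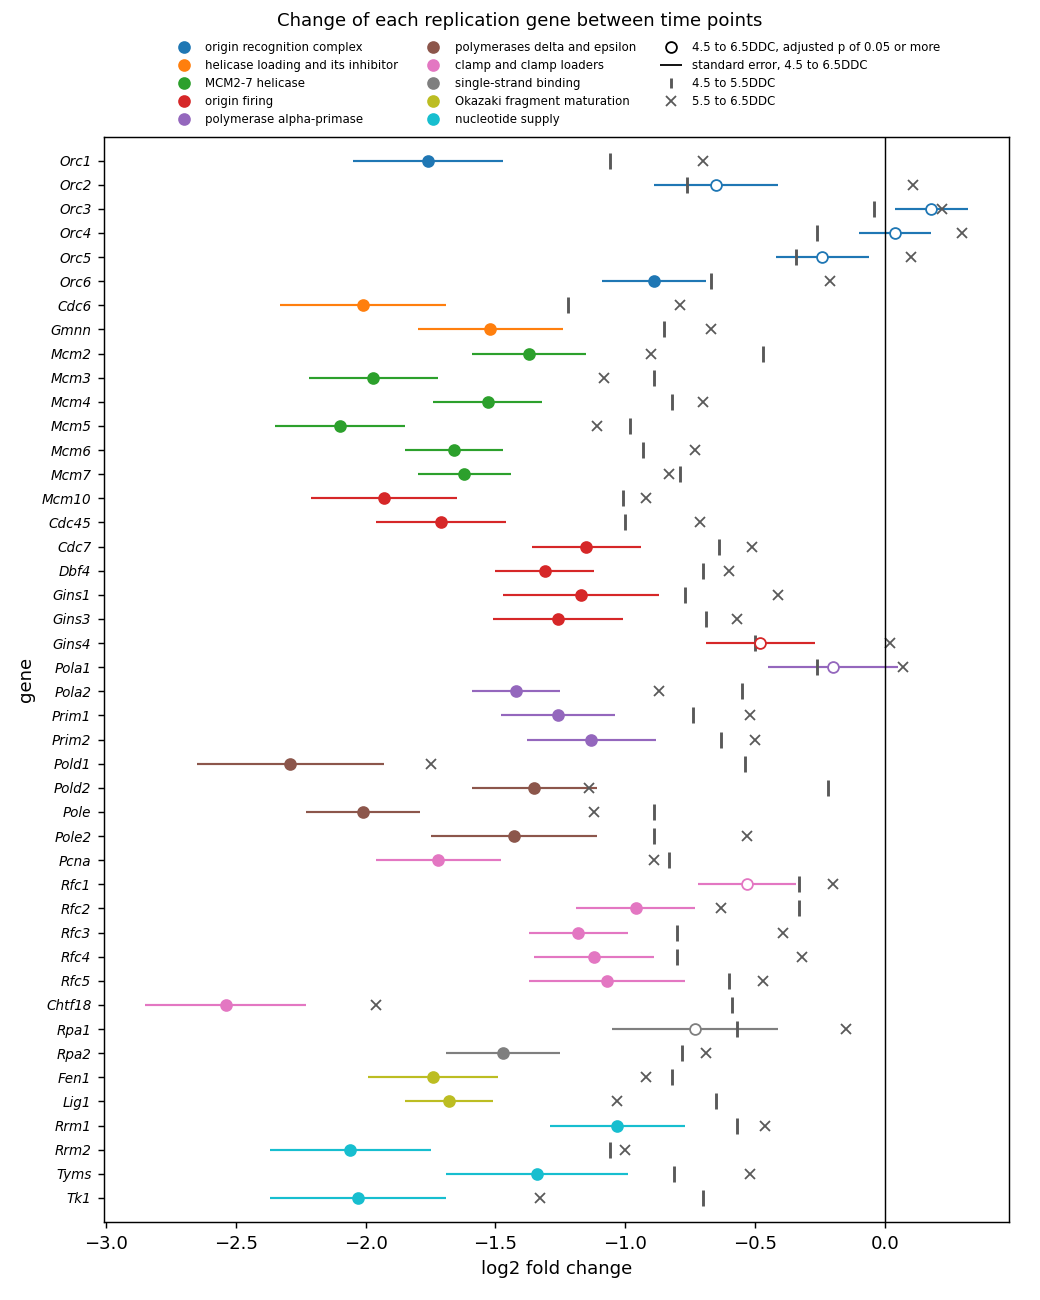
Log2 fold change of each member, coloured by role, with circles and standard errors for 4.5DDC to 6.5DDC, ticks for the first interval and crosses for the later interval. The median of the ORC genes (-0.45) lies nearest 0 and that of Cdc6 and Gmnn (-1.77) furthest below.

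Transcript GC content moved with the fold changes. Over 12385 tested genes with a transcript sequence, Spearman correlation of log2 fold change with GC was -0.25 for the whole span, 0.21 for the first interval and -0.54 for the later interval. Over the 44 members, which share the same libraries, it was -0.59, -0.03 and -0.74. Median GC of the members was 48.1% against 50.1% for tested genes, with Pold1 at 60.7%, Chtf18 at 59.0%, Pold2 at 58.7% and Orc4 at 36.8%. Deviations of single libraries from the gene mean correlated with GC at 0.16, 0.37 and -0.35 at 4.5DDC, 0.37, 0.35 and 0.37 at 5.5DDC and -0.38, -0.52 and 0.07 at 6.5DDC. With a per-library GC offset, chosen after seeing the data, the member count from 4.5DDC to 6.5DDC was 38 and the member median -1.38, and Orc2 and Rfc1 were added. The same offset called 1815 of all tested genes lower and 1673 higher, against 1405 and 1358 without it. From 5.5DDC to 6.5DDC the offset moved Pold1 from -1.75 to -1.08 and Pold2 from -1.14 to -0.61, and the Spearman value over members went from -0.74 to -0.45. For the first interval that value went from -0.03 to -0.30, and for the whole span from -0.59 to -0.41. The part of GC in the result was not tested.

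**Figure D4:**
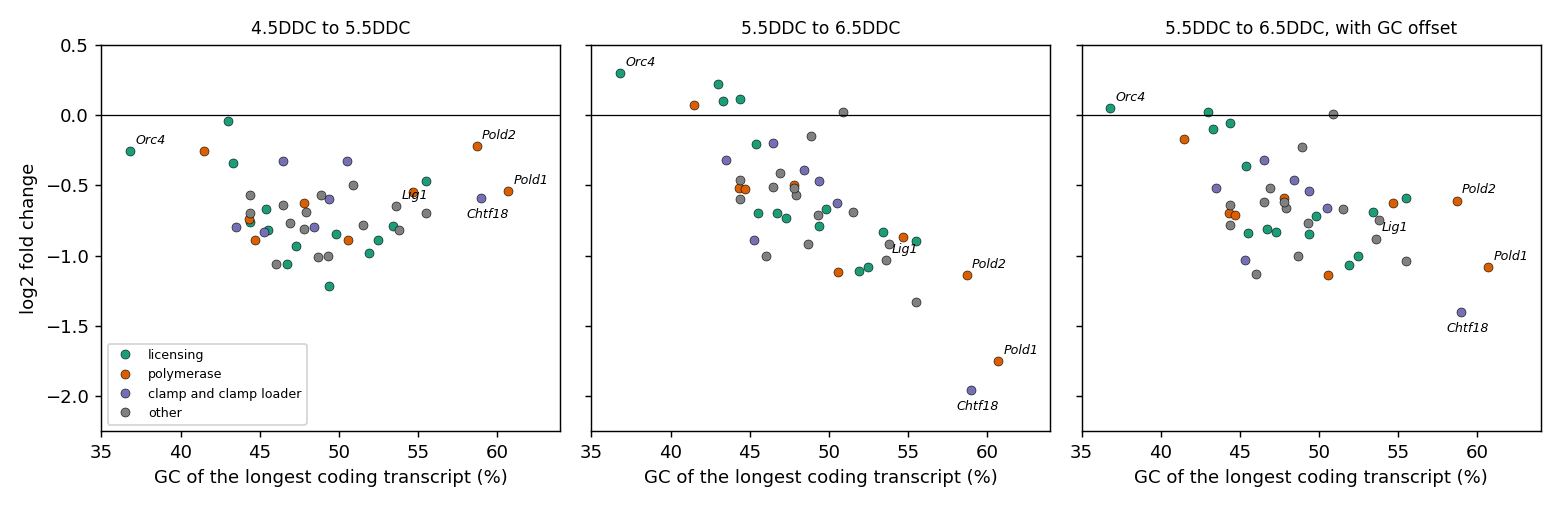
Log2 fold change of the 44 members against GC of the longest coding transcript, coloured by subset, for the first interval, the later interval and the later interval with the GC offset. In the middle panel Chtf18 (59.0% GC) and Pold1 (60.7%) lie lowest and Orc4 (36.8%) highest.

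Of another 46 replication genes outside the list, edgeR called 35 lower and 0 higher over the whole span, beside 9.53% and 9.21% of all tested genes, with a median of -1.09. Unadjusted p was below 0.05 in 39 lower genes and 1 higher gene of this list. DESeq2 called 36 lower and 1 higher, limma voom 36 and 0, and the tests on log2 FPKM 33 and 0. Without 6.5DDC replicate 2, edgeR called 25 of the 46 lower, with 551 of all genes called lower. Uhrf1, which follows the fork, had 116, 139 and 134 FPKM at 4.5DDC, 57.6, 65 and 82.9 at 5.5DDC and 42, 20.9 and 25.9 at 6.5DDC, and it fell by 2.36 on the log2 scale (edgeR's quasi-likelihood test, Benjamini-Hochberg adjusted p = 0.000844). Timeless, which protects the fork, fell by 1.85 on the log2 scale (edgeR's quasi-likelihood test, Benjamini-Hochberg adjusted p = 0.000844). Chaf1b, a histone chaperone, fell by 2.15 (edgeR's quasi-likelihood test, Benjamini-Hochberg adjusted p = 0.00107). Of 20 genes of G2 and mitosis, 20 were called lower, with a median of -1.18, a range from -1.79 (Plk1) to -0.75 (Nusap1) and summed FPKM of 1648, 1917 and 1987 at 4.5DDC, 1272, 1429 and 1493 at 5.5DDC and 1051, 839.8 and 580.8 at 6.5DDC. Cdk1 was the most abundant of these at 209 FPKM. Without 6.5DDC replicate 2, edgeR called 15 of the 20 genes lower, and the tests on log2 FPKM with all libraries called 19. In the first interval their median was -0.46, beside -0.72 for the members, and in the later interval -0.74, beside -0.65. Within replicates 1, 2 and 3 their later median was -0.296, -0.738 and -1.43. The members had 0.0742, -0.865 and -1.13 there, so replicate 2 had the other order. The difference between these lists was not tested.

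Genes of other cell types were read as lists, from 4.5DDC to 6.5DDC. Of 15 neuronal genes 2 were called higher by edgeR and 4 by DESeq2, beside 1358 of all tested genes (9.21%) in edgeR and 1829 in DESeq2. The median log2 fold change of the neuronal genes was 0.83, with 1 of the 15 below 0 and unadjusted p below 0.05 in 4. Map2 rose by 1.65 on the log2 scale (edgeR's quasi-likelihood test, Benjamini-Hochberg adjusted p = 0.00768). Syt1 rose by 3.19 (edgeR's quasi-likelihood test, Benjamini-Hochberg adjusted p = 0.00133). Summed FPKM of the neuronal genes was 287.6, 803 and 526.7 at 4.5DDC, 246.5, 954.1 and 959.1 at 5.5DDC and 517.2, 1113 and 1190 at 6.5DDC, with Gap43 the most abundant at 121. Replicate 1 was lowest at each time point. Of 13 progenitor genes 2 were called lower (Sox3 and Nkx6-1) and 1 higher (Prom1, the sorting marker), with summed FPKM of 2316, 2702 and 2208 at 4.5DDC, 3218, 2852 and 3109 at 5.5DDC and 3108, 2979 and 3150 at 6.5DDC, and Vim the most abundant at 1791. Their median was 0.09, unadjusted p was below 0.05 in 5 lower and 2 higher genes, and DESeq2 called 4 lower and 1 higher. Of 8 mesenchymal genes 1 was called higher (Twist1), with summed FPKM of 52.35, 84.76 and 34.8 at 4.5DDC, 55.84, 37.12 and 34.84 at 5.5DDC and 49.57, 63.36 and 73.64 at 6.5DDC and Acta2 the most abundant at 31.6. DESeq2 called 2 of these higher. Of the 8, 2 lay below 0, the median was 1.30 and the range -1.90 (Meox1) to 3.37 (Lum), and unadjusted p was below 0.05 in 1 lower and 4 higher genes. Of 6 tested astrocyte and oligodendrocyte precursor genes 2 were called higher (Aqp4 and Aldh1l1), with summed FPKM over all 10 listed genes of 16.81, 22.52 and 13.46 at 4.5DDC, 17.16, 16.84 and 17.34 at 5.5DDC and 24.54, 22.16 and 25.39 at 6.5DDC and Mbp the most abundant at 7.01. Of the 6 tested, 2 lay below 0, the median was 0.69 and the range -4.57 (Olig1) to 2.06, and unadjusted p was below 0.05 in 2 lower and 3 higher genes. Of 5 tested endoderm genes and 2 tested pluripotency genes 0 were called by edgeR's quasi-likelihood test, and unadjusted p was below 0.05 in 0 genes of either list. DESeq2, limma voom and the tests on log2 FPKM also called 0 of them, and from 5.5DDC to 6.5DDC 2 endoderm genes had unadjusted p below 0.05 in edgeR. The 5 endoderm genes had a median log2 fold change of 1.35 and a range from -0.17 (Cldn6) to 1.59 (Gata4), with 1 below 0, and within replicates 1, 2 and 3 the median was 1.43, 0.333 and 1.42. The 2 pluripotency genes lay at -0.96 and 0.45. Endoderm genes summed to 91.61, 67.17 and 48.72 at 4.5DDC, 104.8, 75.49 and 70.66 at 5.5DDC and 80.17, 81.13 and 84.79 at 6.5DDC, with Foxa2, also of the floor plate, the most abundant at 73. Pluripotency genes summed to 4.059, 2.716 and 3.501 at 4.5DDC, 4.476, 3.074 and 2.61 at 5.5DDC and 6.495, 3.141 and 2.442 at 6.5DDC, with Klf4 the most abundant at 2.26 and Dppa3 at 0 in all libraries. Their part in the result was not tested.

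**Figure D5:**
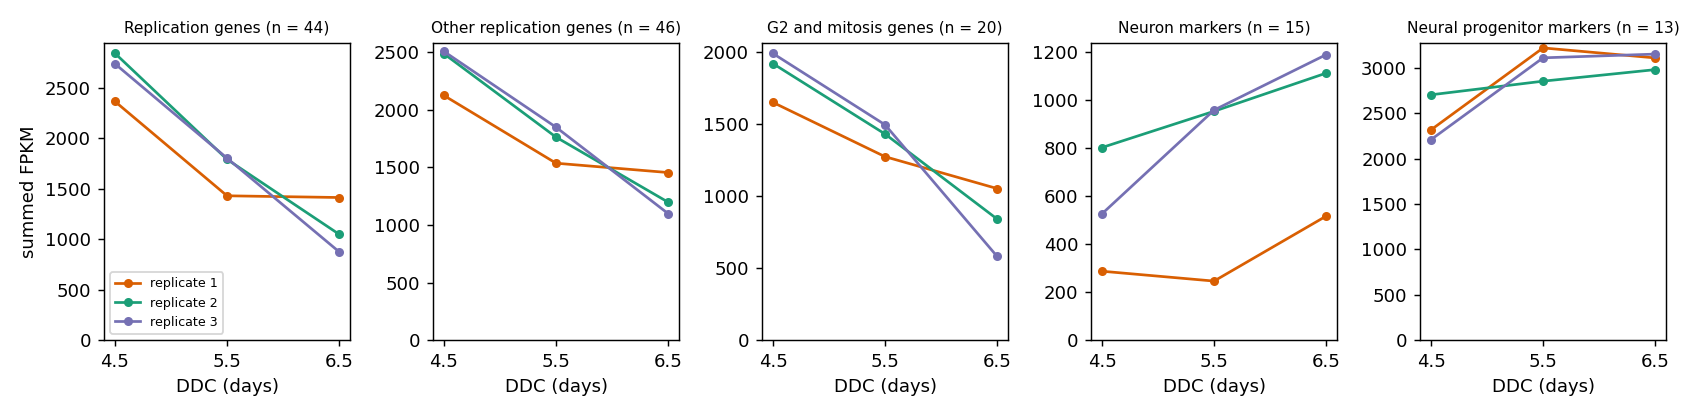
Summed FPKM against days in differentiation conditions for members, other replication genes, G2 and mitosis genes, neuron markers and progenitor markers, with 1 line per replicate number. Across libraries, members are highest at 2843 (4.5DDC replicate 2) and lowest at 876.1 (6.5DDC replicate 3). Neuron markers are lowest at 246.5 (5.5DDC replicate 1) and highest at 1190 (6.5DDC replicate 3).

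Strand of counting was not stated, and 14 of the 44 members share exonic bases with a gene on the opposite strand. After Fen1 the largest shares were in Orc2 (29.8%), Rfc2 (15.1%), Rfc4 (12.7%), Orc1 (10.8%) and Rfc5 (10.7%). Reads of these genes may include those of the neighbour. The members lie on 15 chromosomes, with 10 of the 44 on chromosome 5.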

How the data were processed

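The authors deposited a table of estimated counts per gene, made with HTSeq 0.6.1 without scaling from reads aligned with TopHat2 2.0.4 after bcl2fastq 1.8.3. The authors deposited FPKM made with Cufflinks 2.1.1, scaled to transcript length and mapped reads. A deposited table of log2 (voom) values was not used. One label field writes 4, 5 and 6 days where the others write 4.5, 5.5 and 6.5. Genes were found by exact symbol.

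The design assumed whole counts, but 98 of 38197 symbols had some that were not whole, none a member, and these were rounded. Genes passing filterByExpr (14742) were fitted in edgeR 4.0.16 under R 4.3.3 with TMM factors from 0.951 to 1.04, 1 quasi-likelihood fit of 9 libraries, a common dispersion of 0.0733 and 6 residual degrees of freedom. Contrasts were 4.5DDC to 6.5DDC, 4.5DDC to 5.5DDC, 5.5DDC to 6.5DDC, the difference between intervals and any of the 3. Calls are at Benjamini-Hochberg adjusted p below 0.05. Levels and overlap use FPKM. Alternatives used limma 3.58.1, DESeq2 1.42.0 and a per-library lowess offset over transcript GC, chosen after seeing the data. Figures used matplotlib 3.10.9, scipy 1.17.1, numpy 2.4.6 and pandas 2.3.3 under Python 3.11.15. Positions came from GENCODE M21 on GRCm38, promoters from RefSeq on GRCm38.p6. A floor of 3 counts is 0.118 to 0.271 CPM, from counting error only. Members and the 8 gene lists were chosen with earlier results of these data known.

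Correlations between libraries with the same replicate number, in replicates 1, 2 and 3 and after removing the mean of each time point, were 0.739, 0.384 and 0.446 for 4.5DDC and 5.5DDC, 0.454, 0.356 and 0.199 for 5.5DDC and 6.5DDC and 0.38, -0.0271 and -0.196 for 4.5DDC and 6.5DDC. Libraries with different numbers reached 0.467. All same-number values are above 0 for adjacent time points only, and the labels do not say what a number shares.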

Additional observations from a re-analysis of the deposited data

How the results depend on the processing

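Of the 36 members called lower from 4.5DDC to 6.5DDC, 27 were called under all 22 tested alternatives and all 36 lay below 0. Orc1, Orc6, Gins1, Prim2, Pole2, Rfc2, Rfc5, Rrm1 and Tyms lost the call under at least 1. Members called lower ran from 28 (without 6.5DDC replicate 2) to 40 (without 6.5DDC replicate 1). A replicate block left 36, and it moved all genes called to 212 from 4.5DDC to 5.5DDC and to 195 from 5.5DDC to 6.5DDC and changed no call of a member in the 3 pairwise comparisons. Orc2 and Rfc1 were added by voom and by the GC offset. Orc2, Rfc1, Gins4 and Rpa1 were added with replicates 2 and 3 only. The cause was not tested.

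All genes called from 4.5DDC to 6.5DDC (2763) became 4586 with replicates 2 and 3, 4674 with GC offset and block, and 1125 (without 6.5DDC replicate 2) to 3132 when a library was left out, with 1152 without 4.5DDC replicate 2. Members called from 4.5DDC to 5.5DDC (0) became 17 with DESeq2, 13 with replicates 2 and 3, 3 with GC offset and block, and 0 to 1 (without 6.5DDC replicate 1) when a library was left out. All genes called there (11) became 25 without filter, 454 with DESeq2, 7 on log2(FPKM + 1), 1 with only the 2 time points, 212 with the block, 485 with replicates 2 and 3, 22 with GC offset, 505 with GC offset and block, and 1 to 28 when a library was left out: 3 without 4.5DDC replicate 2, 1 without 4.5DDC replicate 3, 7 without 5.5DDC replicate 2, 1 without 5.5DDC replicate 3, 28 without 6.5DDC replicate 1 and 5 without 6.5DDC replicate 2.

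Members called from 5.5DDC to 6.5DDC (2) became 5 without filter, 16 with DESeq2, 1 with voom, 0 on log2(FPKM + 1) and on log2(FPKM + 0.1), 0 with only the 2 time points, 29 with replicates 2 and 3, 1 with GC offset, 8 with GC offset and block, and 0 to 17 when a library was left out: 17 without 6.5DDC replicate 1, 1 without 4.5DDC replicate 2 or 3, 0 without 4.5DDC replicate 1, any 5.5DDC library, or 6.5DDC replicate 2 or 3. All genes called there (33) became 55 without TMM, 78 without filter, 615 with DESeq2, 12 on log2(FPKM + 1), 0 on log2(FPKM + 0.1), 0 with only the 2 time points, 195 with the block, 728 with replicates 2 and 3, 60 with GC offset, 419 with GC offset and block, and 0 to 196 when a library was left out: 1 without 4.5DDC replicate 1, 13 without 4.5DDC replicate 3, 4 without 5.5DDC replicate 1, 196 without 6.5DDC replicate 1, and 0 without 5.5DDC replicate 2 or 3 or 6.5DDC replicate 2 or 3. Members called at any of the 3 time points (31) ran from 14 (without 6.5DDC replicate 2) to 39, with 20 without 4.5DDC replicate 2. In replicate 1 only the licensing median was -0.931 (-1.52 in all), the polymerase median -0.924 (-1.39), the clamp and clamp loader median -0.525 (-1.12) and the median of all members -0.868 (-1.36).

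Of the 8 members not called, the direction turned in Orc2, Orc4, Orc5, Gins4, Pola1 and Rpa1 under at least 1 of the 23 alternatives. Those alternatives, which include replicate 1 only, did not turn Orc3 or Rfc1. Within replicate 3, which is not among them, Orc3 was -0.182. Orc4 (0.04) was -0.162 on log2(FPKM + 1), -0.164 on log2(FPKM + 0.1), -0.146 with GC offset, -0.147 with GC offset and block, and -0.0286 to 0.174 when a library was left out, with -0.0236 without 4.5DDC replicate 1, -0.0286 without 4.5DDC replicate 2 and -0.0153 without 6.5DDC replicate 2. Pola1 ran from -0.527 to 0.0493 (without 6.5DDC replicate 3) and was 0.355 in replicate 1 only. In replicate 1 only, Orc2 was 0.000742, Orc5 0.117, Gins4 0.0537 and Rpa1 0.172.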
